A study of Homo sapiens with 12 samples.

Results

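The 10 genes described here, TFAM, TFB1M, TFB2M, POLRMT, TWNK, POLG, POLG2, SSBP1, ATAD3A and ATAD3B, encode proteins that copy, transcribe, package or anchor mitochondrial DNA. They were taken by symbol, and 10 of the 60649 genes in each count table matched, 1 row for each symbol. The list was drawn up with the response to teriflunomide known, because ATAD3B was among the genes that were lowest with that drug relative to control. The values of teriflunomide against control are therefore given for these genes as a description with no test, and ATAD3B is tested only where neither control nor teriflunomide libraries enter the difference.

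Total RNA was sequenced as mRNA libraries from spheroids of SBC3, an established human small cell lung cancer line, in 12 libraries of 4 groups with 3 libraries each. The groups were untreated control, teriflunomide (an inhibitor of the pyrimidine synthesis enzyme DHODH, which sits in the mitochondrial inner membrane), lurbinectedin (a DNA-binding alkylating drug that acts on transcribed genes), and both drugs together, called the combination. Every group is the same single cell line, and doses and treatment times are not given in the sources used here. No source says whether the 3 libraries of a group came from separate cultures, so p-values measure only the spread between these libraries, which may be technical.

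Library totals ranged from 23206414 to 33222162 counts, and no pair of libraries held identical values. Teriflunomide replicate 3 and combination replicate 2 stood apart from the other libraries of their groups. Genes of the mitochondrial genome took 22.6% and 24.9% of the counts in these 2 libraries, against 8.42% and 8.43% in the other teriflunomide libraries and 14.6% and 13.1% in the other combination libraries. In control that share was 6.26% to 7.17%, and in lurbinectedin 13.8% to 17%. Of the small cell lung cancer and neuroendocrine markers reported here, INSM1 had 0 counts in every library, NCAM1, POU2F3 and CHGA stayed below 1 CPM, and NEUROD1 (1.5 to 6.51 CPM, read counts scaled to a common library size by TMM), SYP (14.1 to 36.2 CPM) and YAP1 (60.2 to 343 CPM) were detected. Every immune, endothelial, surfactant and club cell marker listed stayed below 1 CPM. The collagen genes COL1A1 and COL1A2 were expressed, while the other fibroblast markers LUM and DCN had 0 and at most 1 count in a library.

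Mitochondria carry their own small circular genome in many copies, and all proteins that maintain it are made from nuclear genes. TFAM coats the DNA into nucleoids and opens the promoters, POLRMT transcribes it together with the initiation factor TFB2M, and the related TFB1M methylates the ribosomal RNA of the mitochondrial ribosome. TWNK unwinds the DNA, SSBP1 covers the single strands, and POLG copies them with its accessory subunit POLG2. ATAD3A and ATAD3B are near-identical AAA ATPases of the inner membrane that contact nucleoids, and ATAD3B arose by duplication in primates.

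Promoters of genes of this kind are known for binding sites of NRF1 and of ETS factors such as GABPA, so the RefSeq promoter windows (250 bases before the gene start, GRCh38.p14) were searched for both. Windows were found for 8 of the 10 genes, all but TWNK and ATAD3B, and the window of ATAD3A begins inside the gene as the count tables place it. The NRF1-type motif, the half-sites GCGC and TGCGC parted by any 1 base (both strands), occurred in 4 genes, against 5.07% of all 35114 windows of the same length. The letters CCGGAAG (ETS-type, both strands) also occurred in 4 genes, against 8.52% of all windows. Both motifs occurred together in POLRMT, POLG2 and TFB1M, against 0.812% of all windows, and the 2 motifs do not overlap in any of them. The stretches of the 4 genes with an NRF1-type match are shown because these genes gave both rises and falls in the comparisons that follow. They are written 5′ to 3′ on the gene's strand, with matched letters in capitals, and were shortened where the window runs into the gene as the count tables place it.
POLRMT, chr19:633538-633787, minus strand: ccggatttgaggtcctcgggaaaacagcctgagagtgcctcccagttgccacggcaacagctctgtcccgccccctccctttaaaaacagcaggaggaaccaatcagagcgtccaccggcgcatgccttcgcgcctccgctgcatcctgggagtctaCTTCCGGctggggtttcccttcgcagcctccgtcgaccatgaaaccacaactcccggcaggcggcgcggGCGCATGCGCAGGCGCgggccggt
POLG2, chr17:64497055-64497304, minus strand: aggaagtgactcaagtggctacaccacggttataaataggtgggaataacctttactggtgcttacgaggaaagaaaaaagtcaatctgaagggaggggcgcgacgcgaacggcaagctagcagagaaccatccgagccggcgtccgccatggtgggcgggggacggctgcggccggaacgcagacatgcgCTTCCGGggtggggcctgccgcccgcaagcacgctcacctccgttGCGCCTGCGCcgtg
TFB1M, chr6:155314494-155314734, minus strand: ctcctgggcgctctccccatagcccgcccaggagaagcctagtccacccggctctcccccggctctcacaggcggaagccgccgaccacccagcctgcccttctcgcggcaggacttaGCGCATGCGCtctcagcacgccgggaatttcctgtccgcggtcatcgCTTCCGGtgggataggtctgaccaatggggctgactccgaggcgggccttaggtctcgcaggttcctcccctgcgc
TFAM, chr10:58385337-58385366, plus strand: acgctctcccGCGCCTGCGCcaattccgcc

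In POLRMT a pair of overlapping NRF1-type matches begins 24 and 18 bases before the RefSeq start, and an ETS-type match begins 93 bases before it. The POLG2 matches begin 14 (NRF1-type) and 59 (ETS-type) bases before the start, and those of TFB1M 132 and 85 bases before it. The TFAM match begins 63 bases before the RefSeq start and lies inside the first exon as the count tables place it. The fourth gene with an ETS-type match, SSBP1, holds it in 1 of its 3 listed windows, 244 bases before that start. No match in TFB2M, POLG or ATAD3A says only that these letters are not in those windows.

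**Figure D1:**
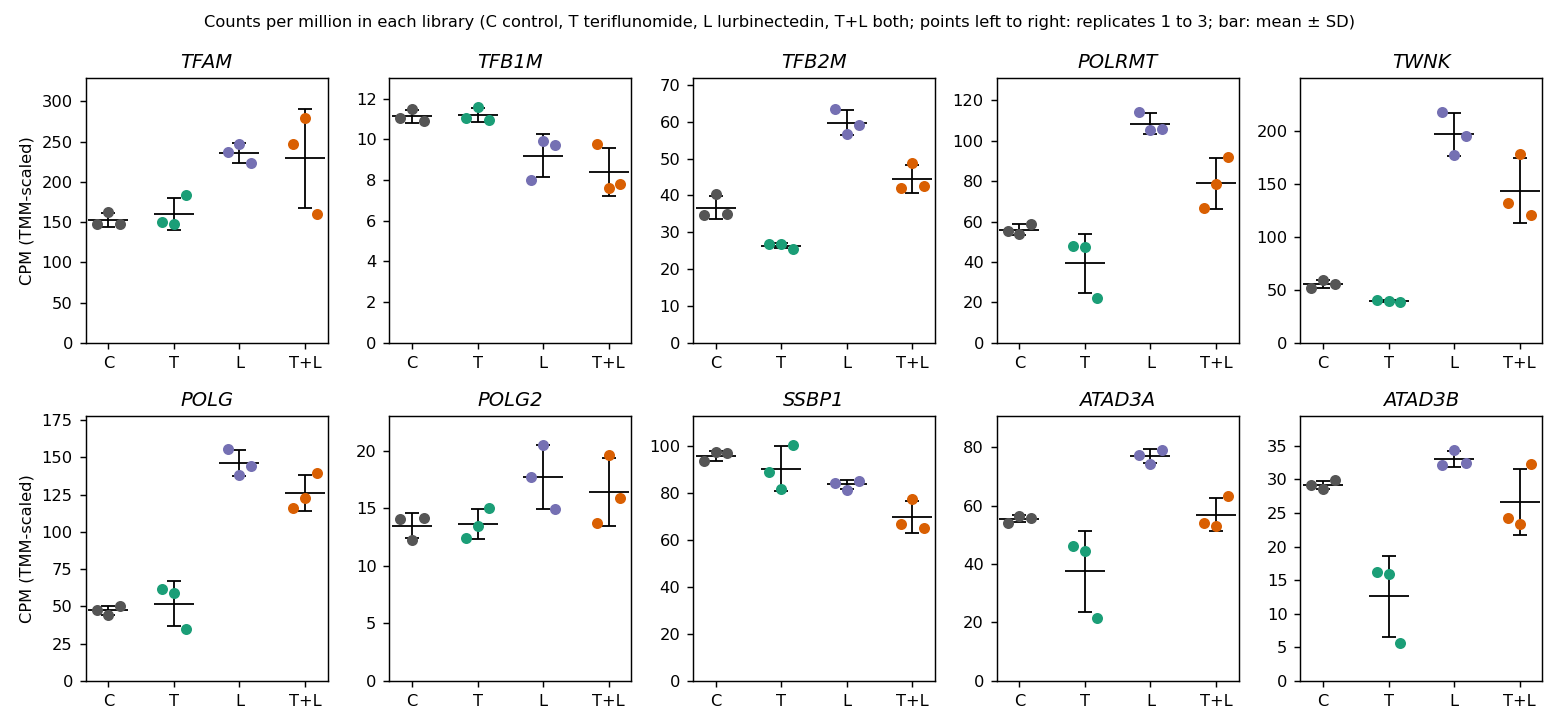
CPM (vertical axes from 0) of each of the 10 genes in the 12 libraries; points are libraries in replicate order and bars are group means with SD. TWNK, POLG, POLRMT and TFB2M had their highest group means with lurbinectedin, and ATAD3B was lowest in the 3 teriflunomide libraries.

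Untreated spheroids expressed all 10 genes. Levels between genes were compared per kilobase of exon, as CPM per kb (mean ± SD, n = 3). The length is that of all annotated exons of a gene merged, for example 7.69 kb for ATAD3B and 3.34 kb for ATAD3A. Which transcripts the spheroids made was not measured, so the order between genes depends on these lengths. TFAM stood highest at 28.9 ± 1.67, followed by TFB2M at 20.6 ± 1.78 and SSBP1 at 19.3 ± 0.426, whose library ranges overlapped. ATAD3A (16.6 ± 0.354), TWNK (13.5 ± 0.884), POLRMT (11.1 ± 0.498) and POLG (6.14 ± 0.392) followed without overlap between neighbours. ATAD3B stood at 3.80 ± 0.0863, and POLG2 (2.97 ± 0.235) and TFB1M (2.71 ± 0.0795) were lowest and overlapped each other. In lurbinectedin TWNK reached 47.6 ± 4.88 CPM per kb and TFAM 44.6 ± 2.29, and the library ranges of these 2 genes overlapped there.

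Lurbinectedin alone asks how the maintenance genes stood under a drug that acts on nuclear transcription. The genes for the replication enzymes TWNK and POLG rose most, to 3.54 and 3.08 times the control level, and TFAM, TFB2M and POLRMT, which package and transcribe mitochondrial DNA, rose by smaller factors. SSBP1 and TFB1M had lower means than control but did not pass the test, although each passed as lower under 4 of 16 alternatives, DESeq2 and the fit on these 2 groups only among them. In bulk RNA a gene's lower share from fewer cells of a kind and from less RNA per cell cannot be told apart. Of the 9 genes tested, 6 passed at an adjusted p under 0.05 (edgeR's quasi-likelihood test with Benjamini-Hochberg adjustment over 16683 genes), all 6 higher. DESeq2 gave 6 higher and 2 lower, and the fit on these 2 groups only gave 7 higher and 2 lower. Over all genes 71.6% passed with edgeR, 36% higher and 35.7% lower. DESeq2 called 11935 of 16683 genes, and the fit on these 2 groups only called 13149 of 15699. A call alone was therefore the common outcome in this comparison. The median log2 fold change of the 10 genes was 0.55, and that of all genes 0.05. The libraries of the 2 groups lay apart for all 10 genes. The share of all genes that lay apart was not counted. Nothing is therefore read from such separation, here or in the combination against control.

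Among the genes for packaging and transcription, TFAM stood at 148, 163 and 148 CPM in the 3 control libraries and at 237, 247 and 223 CPM in the lurbinectedin libraries. The ranges of the 2 groups did not meet, and the log2 fold change was 0.63 ± 0.163 (SE; adjusted p = 0.00346, edgeR). The initiation factor TFB2M was measured at 34.8, 40.4 and 34.9 CPM in control and at 63.3, 56.7 and 59.2 CPM in lurbinectedin. Here too the groups lay apart, with a log2 fold change of 0.70 ± 0.107 (adjusted p = 4.15e-05, edgeR). POLRMT, the polymerase itself, stood at 55.6, 53.8 and 58.8 CPM in control and at 114, 105 and 106 CPM in lurbinectedin. The 3 lurbinectedin libraries all lay well above the highest control library, with a log2 fold change of 0.95 ± 0.218 (adjusted p = 0.00139, edgeR). TFB1M, the RNA methyltransferase, gave 11, 11.5 and 10.9 CPM in control and 7.99, 9.89 and 9.70 CPM in lurbinectedin. All 3 lurbinectedin libraries were lower than control, but the log2 fold change of -0.27 ± 0.134 did not pass (adjusted p = 0.0811, edgeR). TFB1M has the largest exon overlap of the 10 genes: 38.7% of its exonic bases lie in other annotated genes, 30.7% with TIAM2 on the opposite strand, and whether the authors counted by strand is not given in the sources used here.

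Among the genes for replication, the helicase gene TWNK stood at 51.8, 59.1 and 55.9 CPM in control and at 218, 178 and 195 CPM in lurbinectedin. The groups lay far apart, and the log2 fold change of 1.82 ± 0.138 (adjusted p = 4.11e-08, edgeR) was the largest of the 10 genes. The catalytic subunit POLG was at 47.7, 44.1 and 50.1 CPM in control and at 155, 138 and 144 CPM in lurbinectedin, a log2 fold change of 1.63 ± 0.173 (adjusted p = 1.32e-06, edgeR). Again no library of one group came near the other, and 5.95% of the POLG exonic bases overlap FANCI on the opposite strand. The accessory subunit POLG2 gave 14.0, 12.3 and 14.2 CPM in control and 17.7, 20.5 and 14.9 CPM in lurbinectedin. The groups just failed to overlap, and the log2 fold change was 0.39 ± 0.156 (adjusted p = 0.0369, edgeR). That call was lost under 9 of 16 alternatives, among them leaving out any 1 control library, lurbinectedin replicate 1 (0.38) or lurbinectedin replicate 2 (0.26, adjusted p = 0.190, edgeR), and over the 16 the adjusted p ranged from 0.000631 to 0.388. SSBP1, the single-strand binding protein, stood at 93.4, 97.4 and 96.8 CPM in control and at 84.1, 81.4 and 85.2 CPM in lurbinectedin. All lurbinectedin libraries lay lower, and the log2 fold change of -0.20 ± 0.103 did not pass (adjusted p = 0.0990, edgeR).

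For the ATAD3 pair, ATAD3A was measured at 54.2, 56.5 and 55.7 CPM in control and at 77.4, 74.3 and 79.1 CPM in lurbinectedin. The groups did not overlap, and the log2 fold change of 0.47 ± 0.206 missed the threshold (adjusted p = 0.0532, edgeR, with a range of 7.46e-09 to 0.466 over 16 alternatives). ATAD3B gave 29.2, 28.5 and 29.8 CPM in control and 32.2, 34.4 and 32.5 CPM in lurbinectedin, a log2 fold change of 0.18 ± 0.271 that was not tested. The tandem copies stood on the same side of control with TMM scaling, but not with library size alone, and their values differed in size. With library size as the only scaling, which moved the median of all genes from 0.05 to -0.18, ATAD3B lay at -0.05, TFB1M and SSBP1 passed as lower, and POLG2 no longer passed. Calls over all genes then split into 4313 higher and 6699 lower, against 5999 and 5954 with TMM.

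Fold changes under lurbinectedin moved with gene length over the whole table. With all genes ordered by genomic span and split into 5 equal bins, the median log2 fold change was 0.69 in bin 1 with the shortest genes, 0.62 in bin 2, 0.28 in bin 3, -0.36 in bin 4 and -1.86 in bin 5. TWNK (7.04 kb) and TFAM (13.9 kb) fall in bin 2. POLRMT, POLG2, ATAD3A, TFB2M, ATAD3B and POLG (16.3 to 29.7 kb) fall in bin 3. SSBP1 (49.6 kb) and TFB1M (58.4 kb), the longest of the 10 genes and the only ones with means below control, fall in bin 4. TWNK at 1.82 stood well above the median of bin 2, and TFAM at 0.63 was close to it. In bin 3 POLG (1.63), POLRMT (0.95), TFB2M (0.70), ATAD3A (0.47) and POLG2 (0.39) stood above the median, and ATAD3B (0.18) below it. In bin 4 SSBP1 (-0.20) and TFB1M (-0.27) lay slightly above the median. The part of length in these values was not tested. The summed CPM of the 4 fibroblast markers also moved with lurbinectedin, from between 519 and 549 in control to between 186 and 220, all of it from COL1A1 and COL1A2, with LUM and DCN at or near 0. Other markers moved as well: the means of YAP1 and NEUROD1 went from 246 and 4.03 CPM in control to 64.9 and 1.62 CPM, and that of SYP from 16.8 to 30.9 CPM. Their part in the values of the 10 genes was not tested.

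**Figure D2:**
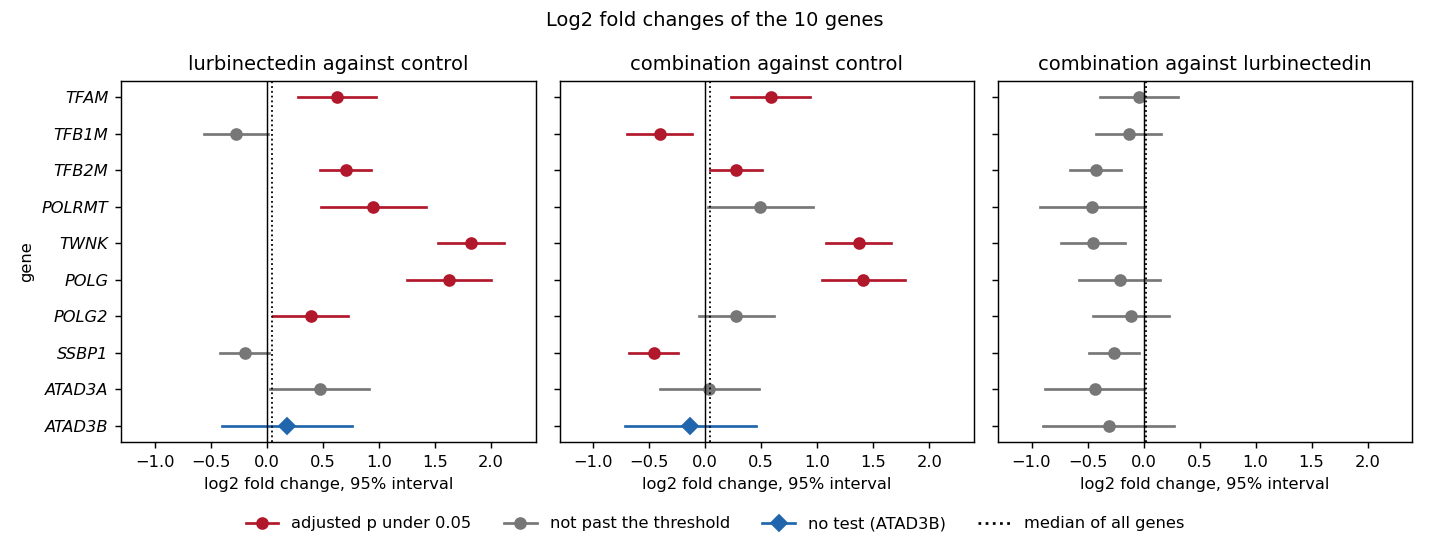
Log2 fold changes of the 10 genes with 95% intervals for lurbinectedin against control, the combination against control and the combination against lurbinectedin; the dotted line is the median of all genes and ATAD3B has no test in the first 2 panels. TWNK (1.82 and 1.37) and POLG (1.63 and 1.41) stand farthest right against control, and all 10 points lie left of 0 in the last panel.

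With both drugs the replication genes TWNK and POLG again rose most against control, to 2.58 and 2.66 times, and SSBP1 and TFB1M fell, to 0.727 and 0.755 times. Of the 9 genes tested, 6 passed, 4 higher and 2 lower, where 68.4% of all genes passed, 34.1% higher and 34.4% lower. The median log2 fold change of the 10 genes was 0.28, against 0.04 over all genes. This comparison uses the same control libraries as the one with lurbinectedin alone.

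TFAM stood at 248, 280 and 160 CPM in the combination. The third library lay inside the control range, and the log2 fold change was 0.58 ± 0.163 (adjusted p = 0.00583, edgeR). TFB2M was at 42.1, 48.7 and 42.5 CPM, above every control library, with a log2 fold change of 0.28 ± 0.107 (adjusted p = 0.0331, edgeR). This call was lost under 7 of 16 alternatives, among them leaving out control replicate 1 (0.23), control replicate 3 (0.24) or combination replicate 2 (0.20, adjusted p = 0.132, edgeR), with adjusted p from 0.0135 to 0.522. POLRMT, at 66.5, 78.4 and 91.9 CPM, also lay above every control library, but its log2 fold change of 0.49 ± 0.217 did not pass (adjusted p = 0.0570, edgeR, 0.000188 to 0.324 over 16 alternatives), except without combination replicate 1 (0.60, adjusted p = 0.0486) and under 4 other alternatives. TFB1M, at 9.77, 7.63 and 7.79 CPM, lay below every control library and fell by 0.41 ± 0.134 on the log2 scale (adjusted p = 0.0149, edgeR). Without combination replicate 3 the adjusted p of TFB1M was 0.0510, and it ranged from 0.00390 to 0.0510 over the alternatives.

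TWNK was measured at 132, 178 and 121 CPM with both drugs, and every one of these libraries lay far above the control mean of 55.6 CPM. Its log2 fold change was 1.37 ± 0.136 (adjusted p = 8.23e-07, edgeR). POLG stood at 116, 123 and 139 CPM, equally far from control, with a log2 fold change of 1.41 ± 0.172 (adjusted p = 6.05e-06, edgeR). POLG2, at 13.7, 19.6 and 15.9 CPM, overlapped control and did not pass (0.28 ± 0.156, adjusted p = 0.127, edgeR), but passed narrowly without combination replicate 1 (adjusted p = 0.0498). SSBP1 fell to 66.6, 77.3 and 65.2 CPM, below every control library, by 0.46 ± 0.103 on the log2 scale (adjusted p = 0.00127, edgeR). The ATAD3 genes sat close to control. ATAD3A gave 54.2, 53.1 and 63.2 CPM (0.04 ± 0.206, adjusted p = 0.888, edgeR), and -0.12 with library size as the only scaling. ATAD3B gave 24.3, 23.3 and 32.3 CPM, a log2 fold change of -0.13 ± 0.271 that was not tested.

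**Figure D3:**
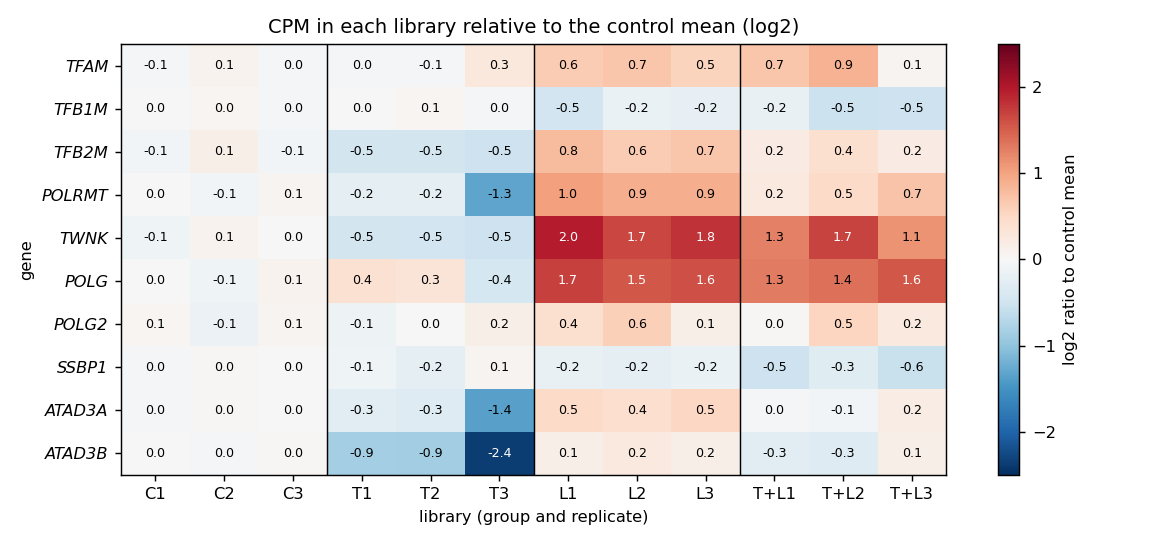
Log2 ratio of each library's CPM to the control mean for the 10 genes (rows) in the 12 libraries (columns C control, T teriflunomide, L lurbinectedin, T+L both); red is above and blue below the control mean, and numbers are rounded to 1 decimal. ATAD3B, ATAD3A and POLRMT are bluest in teriflunomide replicate 3, and TWNK and POLG are red in all lurbinectedin and combination libraries.

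The effect of adding teriflunomide to lurbinectedin was read from the combination against lurbinectedin. The difference in this comparison uses none of the libraries on which ATAD3B was chosen, so all 10 genes were tested. The SE and p-values still draw on the spread in all groups, the control and teriflunomide libraries included. All 10 log2 fold changes were below 0, with a median of -0.29, where the median of all genes was 0.03 and 46.7% of all genes lay below 0. None of the 10 passed with edgeR, as none of the 16683 genes did (0% called, with 2599 genes at an unadjusted p under 0.05). At an unadjusted p under 0.05 stood 3 of the 10 genes, TFB2M, TWNK and SSBP1. DESeq2 called 584 genes over the whole table and 1 of the 10, TFB2M (log2 fold change -0.42, adjusted p = 0.00798).

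TFB2M (-0.43 ± 0.107, adjusted p = 0.151), POLRMT (-0.46 ± 0.217, 0.328), SSBP1 (-0.26 ± 0.103, 0.258) and ATAD3A (-0.44 ± 0.206, 0.326) had combination libraries that all lay below all lurbinectedin libraries (adjusted p by edgeR). How many of all genes lay apart in this way was not counted, so nothing is read from that separation. TWNK lay at -0.45 ± 0.134 (adjusted p = 0.172, edgeR), with combination replicate 2 inside the lurbinectedin range. ATAD3B was at -0.31 ± 0.271 (adjusted p = 0.605, edgeR), with a 95% interval from -0.89 to 0.27 that holds 0. POLG (-0.21), TFB1M (-0.13), POLG2 (-0.11) and TFAM (-0.04) had the smallest values, and the interval of TFAM ran from -0.39 to 0.31. The sign was not settled for TFAM and POLG2: without combination replicate 3 TFAM lay at 0.16, and without lurbinectedin replicate 2 POLG2 lay at 0.015. Calls depended on the 2 libraries that stand apart. Without combination replicate 2, TWNK passed as lower (-0.64, adjusted p = 0.0388, edgeR), where 259 of 17043 genes passed, 212 higher and 47 lower. Without both that library and teriflunomide replicate 3, an alternative added after the data were seen, 5 of the 10 passed as lower, TFB2M (-0.49), POLRMT (-0.45), TWNK (-0.64), SSBP1 (-0.34) and ATAD3A (-0.39). ATAD3B did not pass in that fit (-0.22, adjusted p = 0.141, edgeR). Over all genes 3640 of 16945 passed in it, 1937 higher and 1703 lower, against 0 with all libraries.

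Adding lurbinectedin to teriflunomide was read from the combination against teriflunomide, which shares its combination libraries with the comparisons above. Of the 9 genes tested, 8 passed, 6 higher and 2 lower, where 70.9% of all genes passed, 35.2% higher and 35.8% lower. TWNK (1.86), POLG (1.28), POLRMT (1.0), TFB2M (0.75), ATAD3A (0.60) and TFAM (0.52) rose on the log2 scale, with adjusted p from 4.26e-08 for TWNK to 0.0185 for ATAD3A by edgeR. The teriflunomide libraries used here are those on which the list was drawn up, so none of these calls is taken as independent of that choice. ATAD3A, which shares sequence with the chosen ATAD3B, was low in them (46.2, 44.6 and 21.6 CPM). POLRMT, TWNK and TFB2M also lay below every control library in them. Without teriflunomide replicate 3 the log2 fold changes were 0.32 for ATAD3A, 0.72 for POLRMT, 1.83 for TWNK and 0.72 for TFB2M. TFB1M (-0.41, adjusted p = 0.0129, edgeR) and SSBP1 (-0.37, adjusted p = 0.00509, edgeR) fell. POLG2 did not pass (0.27, adjusted p = 0.141, edgeR; 0.0482 without combination replicate 1), and ATAD3B lay at 1.08 ± 0.277 with no test. The TFAM call was lost without combination replicate 2 (0.35, adjusted p = 0.0644, edgeR; 0.000115 to 0.0644 over 16 alternatives). The ATAD3A call was lost under 4 of 16 alternatives, without combination replicate 3 among them, with adjusted p from 0.000466 to 0.146. Fitted on these 2 groups only, TFAM, TFB1M, SSBP1 and ATAD3A no longer passed.

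Teriflunomide alone is the comparison on which the list was drawn up, so its values are described only. ATAD3B gave 16.2, 15.9 and 5.66 CPM with teriflunomide against 29.2, 28.5 and 29.8 CPM in control, a log2 fold change of -1.21 ± 0.277 (SE). ATAD3A gave 46.2, 44.6 and 21.6 CPM, a log2 fold change of -0.56 ± 0.207. Teriflunomide replicate 3 was the lowest library for both, and without it the values were -0.86 and -0.29. POLRMT had the same layout, with 48.0, 47.7 and 22.5 CPM and a log2 fold change of -0.51, which was -0.23 without that library. TWNK (40.5, 39.8 and 38.7 CPM) and TFB2M (26.8, 26.7 and 25.5 CPM) were close to each other in all 3 libraries, and their log2 fold changes of -0.49 and -0.48 were -0.47 and -0.46 without replicate 3.

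The groups did not overlap for these 5 genes, ATAD3B, ATAD3A, POLRMT, TWNK and TFB2M. How many of all genes lay apart in this way was not counted, and nothing is read from the 5 because the list was chosen here. By the test, which is a different measure, 6.01% of all genes passed in this comparison, 3.88% higher and 2.13% lower. POLG stood at 61.7, 59.0 and 34.8 CPM. Its first 2 libraries lay above control and the third below, so the log2 fold change of 0.13 was 0.35 without replicate 3. TFAM (150, 147 and 183 CPM; 0.07), TFB1M (11, 11.6 and 10.9 CPM; 0.01), POLG2 (12.4, 13.4 and 15 CPM; 0.01) and SSBP1 (88.8, 81.6 and 100.4 CPM; -0.09) overlapped control. In teriflunomide replicate 3 a share of mitochondrial genome counts of 22.6% stood beside its low ATAD3B, ATAD3A, POLRMT and POLG. Combination replicate 2 had a share of 24.9%. In its group its ATAD3B (23.3 CPM) and ATAD3A (53.1 CPM) were lowest, and its POLRMT (78.4 CPM) and POLG (123 CPM) were the middle values. The part of that share in these values was not tested.

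The interaction term asks whether the drugs together differ from the sum of the 2 single-drug log2 changes. None of the 9 genes tested passed with edgeR, and none had an unadjusted p under 0.05, where 1726 of 16683 genes did. Over all genes 0.258% passed, 0.036% higher and 0.222% lower (43 genes with edgeR, 258 with DESeq2). POLG had the largest tested value in size (-0.35 ± 0.239, adjusted p = 0.671, edgeR). Without teriflunomide replicate 3 it passed (-0.56, adjusted p = 0.0225, edgeR), and over 21 alternatives its adjusted p ranged from 0.00652 to 0.898. Over all genes 616 of 17072 passed without teriflunomide replicate 3, 248 higher and 368 lower. ATAD3B stood at 0.90 ± 0.386, with no test, and at 0.56 without that library.

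ATAD3B and ATAD3A lie in tandem on chromosome 1 of GRCh38, at 1471765 to 1497848 and 1512162 to 1534685 on the plus strand, 14.313 kb apart, with ATAD3C at 1449689 to 1470163 on the other side of ATAD3B. The copies share sequence: 32.5% of the 50-base windows and 15.4% of the 100-base windows of the ATAD3A exons also occur in another gene, mostly in ATAD3B (28.2% and 14.0%). For ATAD3B these shares were 13.1% and 5.92%. For POLRMT they were 22.2% and 4.41%, mostly with POLRMTP1 (20.9% and 4.06%). How reads that fit more than 1 gene were counted is not given in the sources used here. The split between the ATAD3 copies is therefore uncertain, and so is that between POLRMT and POLRMTP1.

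The ratio of ATAD3B to ATAD3A counts per kb, which needs no scaling between libraries, was 0.234, 0.219 and 0.233 in control and 0.152, 0.155 and 0.114 with teriflunomide. All teriflunomide libraries lay below control, which is part of the pattern the list was chosen on and is not tested. With lurbinectedin the ratio was 0.181, 0.201 and 0.179, and in the combination 0.195, 0.191 and 0.222. These 2 groups overlapped, and their log2 difference of 0.12 had an exact two-sided permutation p of 0.3, where 3 libraries against 3 cannot give less than 0.1. ATAD3C, the third copy, was low throughout, at 2.39 ± 0.265 CPM in control (SD, n = 3), and 1.94, 1.54 and 1.69 CPM on average with teriflunomide, lurbinectedin and both.

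Between the subunits of the mitochondrial DNA polymerase, the ratio of POLG2 to POLG counts per kb was 0.499, 0.471 and 0.480 in control. It was 0.194, 0.251 and 0.175 with lurbinectedin and 0.201, 0.271 and 0.193 with both drugs. All 6 libraries given lurbinectedin lay far below the lowest control library. The log2 differences from control were -1.24 and -1.14, each with an exact two-sided permutation p of 0.1, the smallest that 3 against 3 allows (0.15 adjusted over 3 comparisons by Benjamini-Hochberg). Combination and lurbinectedin differed by 0.10 (exact p = 0.6, adjusted 0.6). With teriflunomide the ratio was 0.341, 0.386 and 0.731, and only replicate 3 stood above control.

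**Figure D4:**
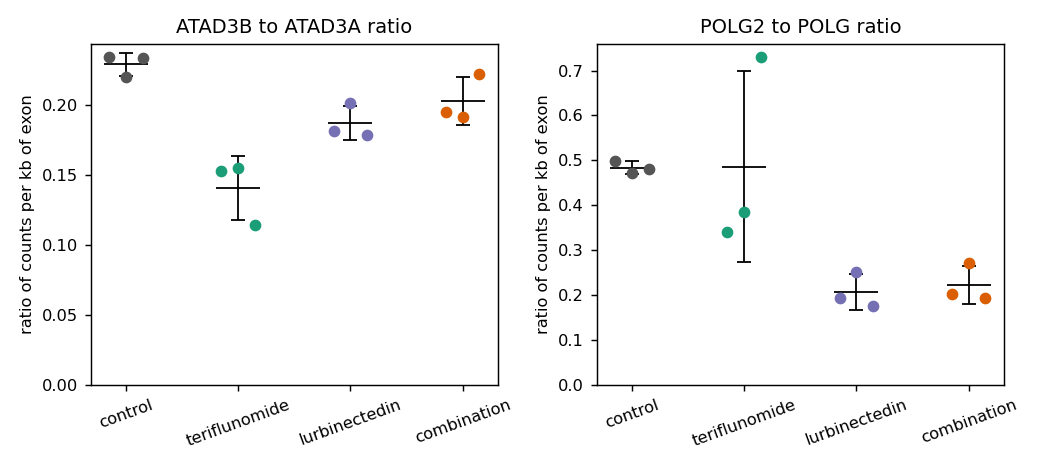
Ratio of ATAD3B to ATAD3A and of POLG2 to POLG counts per kb of exon in each library (vertical axes from 0), with group means and SD. The ATAD3B to ATAD3A ratio is lowest in the teriflunomide libraries (0.114 to 0.155), and the POLG2 to POLG ratio is 0.175 to 0.271 in all libraries given lurbinectedin, against 0.471 to 0.499 in control.

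The genes whose pattern over the 12 libraries was most like that of ATAD3B were found by the root mean square difference in log2 CPM relative to the control mean, among 10360 genes. RAC3 (0.150), CTXN1 (0.183), SLC16A3 (0.203), MFSD10 (0.209) and ADISSP (0.220) were nearest. RAC3 averaged -1.34, 0.28 and -0.32 on the log2 scale with teriflunomide, lurbinectedin and both. ATAD3A, the neighbouring copy, stood at place 97 with a difference of 0.413. The order depends on the measure: by Pearson's r over the same 12 libraries ATAD3A (0.956) stood beside ADISSP (0.954) and below RAC3 (0.978). Both measures include the control and teriflunomide values on which ATAD3B was chosen, so they are a description.

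A wider list of 44 other genes of mitochondrial DNA maintenance and expression was measured alongside, of which 43 passed the filter on low counts. PPARGC1A, a coactivator of mitochondrial genes, had at most 1 count in a library. With teriflunomide 3 of the 43 passed, 1 higher and 2 lower, close to the 6.01% of all genes (3.88% higher, 2.13% lower). RRM2B, the p53-controlled ribonucleotide reductase subunit that supplies deoxynucleotides, stood at 80.1, 81.1 and 75.2 CPM in control and at 143, 151 and 169 CPM with teriflunomide, and rose by a log2 fold change of 0.97 ± 0.116 (adjusted p = 0.000754, edgeR). The inner membrane scaffold PHB1 (-0.41, adjusted p = 0.0450) and the RNA-binding protein LRPPRC (-0.35, adjusted p = 0.0334, both edgeR) fell. RRM2B was the only one of the 43 that passed when any 1 control library or teriflunomide replicate 2 was left out. Without teriflunomide replicate 1, 6 of the 43 passed, where 1271 of 17077 genes did. Without teriflunomide replicate 3, 5 passed, where 1555 of 17072 genes did, against 1002 of 16683 with all libraries.

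With lurbinectedin 16 of the 43 rose and 12 fell, where 36% of all genes rose and 35.7% fell (71.6% in either direction), so neither this count nor the counts by role stand out by themselves. With library size as the only scaling 10 rose and 18 fell, where 4313 of all 16683 genes rose and 6699 fell. The median log2 fold change was 0.08 against 0.05 over all genes. Of the 10 genes for replication, nucleases and topoisomerases, 6 rose and 3 fell. The nuclease MGME1, which trims replication ends, stood at 41.1, 44.2 and 40.5 CPM in control and at 135, 132 and 137 CPM in lurbinectedin, a log2 fold change of 1.68 ± 0.0954 (adjusted p = 2.24e-09, edgeR). PRIMPOL, a primase that restarts stalled forks, fell by 1.53 on the log2 scale (adjusted p = 5.89e-06, edgeR). Of 5 elongation and termination factors 2 rose, MTERF1 by 0.69 among them. Of 8 genes for mitochondrial RNA processing and decay 2 rose and 3 fell. Of the 3 RNase P subunits in this role, HSD17B10 did not pass (-0.17, adjusted p = 0.374, edgeR), TRMT10C rose by 0.81 and the nuclease PRORP fell by 4.08 (adjusted p = 1.37e-08, edgeR), from 7.24, 9.03 and 6.66 CPM in control to 0.388, 0.430 and 0.509 CPM.

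Nucleotide supply inside mitochondria was split, with 2 of 8 genes higher and 2 lower. RRM2B rose by 1.73 ± 0.118 (adjusted p = 1.54e-08, edgeR), and SUCLA2, a subunit of succinyl-CoA synthetase linked to nucleoside salvage, fell by 1.16 on the log2 scale. Of 6 nucleoid and inner membrane partners 2 rose, led by PHB1 at 0.58, and 1 fell. Of the 6 nuclear regulators 2 rose and 3 fell. The coactivator PPRC1 rose by 0.86, and its relative PPARGC1B fell by 3.80 (adjusted p = 1.09e-08, edgeR), from 22, 23.6 and 26.3 CPM to 1.74, 1.56 and 1.85 CPM. NRF1, whose type of motif is capitalised in the promoters above, had a log2 fold change of -1.48 and was among the 3 that fell. GABPB1 was too, averaging 26.3 CPM in control and 14.3 CPM in lurbinectedin, while GABPA was at -0.26 without passing. NRF1, GABPB1 and GABPA were named after their values were seen. The genomic spans of the wider list were not set against the length bins above, where the longest genes had a median of -1.86. The part of length in the values of this list was not tested.

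**Figure D5:**
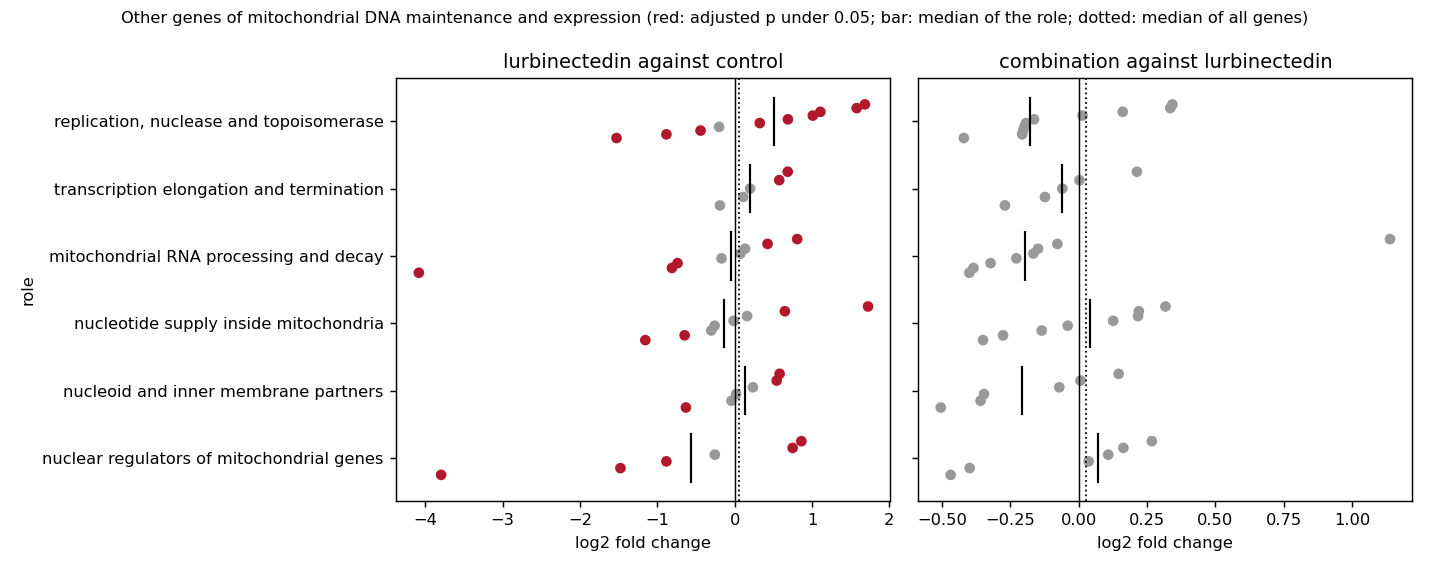
Log2 fold changes of the 43 other genes of mitochondrial DNA maintenance and expression by role, for lurbinectedin against control and for the combination against lurbinectedin; each point is a gene, red where the adjusted p was under 0.05, the bar is the median of the role and the dotted line that of all genes. In the first panel every role holds calls (16 higher, 12 lower in all), and in the second panel none passed.

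In the combination 12 of the 43 rose and 13 fell against control, near the 34.1% and 34.4% of all genes. With library size as the only scaling 9 rose and 15 fell, where 4290 and 6164 of all 16683 genes did. The genes that led each role were largely those of lurbinectedin alone: MGME1 (1.49), MTERF1 (0.63), TRMT10C (0.58), RRM2B (1.95) and PPRC1 (0.46) rose, and PRIMPOL (-1.18), PRORP (-2.95), SUCLA2 (-1.03) and PPARGC1B (-3.76) fell. Among the nucleoid and inner membrane partners the mitochondrial chaperone HSPA9 rose by 0.47 and the protease LONP1, which degrades TFAM, fell by 0.34 on the log2 scale (adjusted p = 0.0287, edgeR). The LONP1 call was lost without any 1 control library or without combination replicate 1 or 3, and that of TRMT10C without combination replicate 2 (0.38, adjusted p = 0.0579, edgeR). Against teriflunomide, 14 rose and 12 fell in the combination, where 35.2% and 35.8% of all genes did. These were led by MGME1 (1.43) and the flap nuclease FEN1 (1.41) upward and by PPARGC1B (-3.17) and PRORP (-2.92) downward. With library size as the only scaling 10 rose and 13 fell, where 4886 and 6053 of all 16683 genes did. Against lurbinectedin none of the 43 passed with edgeR, 13 had an unadjusted p under 0.05, and DESeq2 called 2. Of all 16683 genes 2599 had such a p there, and DESeq2 called 584. In the interaction none passed with edgeR, 4 had an unadjusted p under 0.05, and DESeq2 called 1. Of all 16683 genes 1726 had such a p in the interaction, and DESeq2 called 258.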

How the data were processed

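Each of the 12 libraries has 1 deposited table of raw read counts per gene with the length of the gene's merged exons. Per the submitters' processing notes the tools were fastp 0.23.2, STAR 2.7.9 and featureCounts of Subread, and the build hg38. The annotation release, the use of strand and the treatment of reads with several matches are not given in the sources used here. Per the file headers, each gene has coordinates, and the 37318 gene identifiers that match GENCODE 29 in version all have its coordinates (GRCh38). Symbols were matched for 60507 of 60649 identifiers (99.77%).

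Counts were tested with edgeR 4.0.16 in R 4.3.3 (filterByExpr, TMM scaling, robust quasi-likelihood fit with 1 mean per group over all 12 libraries, two-sided), with Benjamini-Hochberg adjustment over 16683 genes and a threshold of 0.05. The typical biological coefficient of variation was 14.5%. DESeq2 1.42.0 was an alternative. CPM are TMM-scaled. Ratios within libraries were compared by exact two-sided permutation tests, which cannot give a p under 0.1 here. Errors are SD over libraries, or SE for log2 fold changes, and 95% intervals come from those SE. The fit was tested on simulated data with known changes. Shared sequence was counted over windows of 50 and 100 bases of the GENCODE 29 exons. Promoters came from RefSeq.

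The 10 genes, the wider list of 44, the markers and the tests were chosen with earlier results of these data known. All 10 genes were described in every comparison. From the wider list, the called gene with the largest rise and the largest fall of each role was named for lurbinectedin and for the combination against control, and up to 2 in each direction over the whole list elsewhere, where the group with more of it averaged 5 CPM or above. The genes most like ATAD3B were the 5 nearest with at least 5 CPM in control. The labels number replicates 1 to 3 in each group, but same-numbered libraries did not deviate together, so no pairing was used.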

Additional observations from a re-analysis of the deposited data

How the results depend on the processing

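Over the other scalings, filters, tests and left-out libraries tried, 27 of 46 tested values of the 10 genes kept their call and 19 differed under at least 1. Of the other 43 genes with teriflunomide against control, 3 passed, against 1 with library size only, with only the groups compared or at an adjusted p under 0.01, and 8 with no filter or with DESeq2. Leaving out single libraries gave 1 to 6, where 216 to 1555 of all genes passed. Over all genes 1002 of 16683 passed, against 265 with library size only and 283 of 15502 with only the groups compared. With no filter 1800 of 35577 passed, and with DESeq2 1907 of 16683. For the combination against teriflunomide, 8 of the 9 genes tested passed, against 4 with only the groups compared and 5 at an adjusted p under 0.01. Over all genes 11835 of 16683 passed there, and 9996 of 15954 with only the groups compared. For the combination against lurbinectedin, 0 of the 10 passed, against 1 with DESeq2 and 0 to 1 when leaving out single libraries. Of the wider list 0 passed, against 2 with no filter, 2 with DESeq2 and 1 with only the groups compared. Over all genes 0 of 16683 passed, against 612 of 35577 with no filter and 584 with DESeq2. With only the groups compared 94 of 15370 did. In the interaction, leaving out single libraries gave 0 to 1 of the 9 genes tested and 0 to 2 of the wider list. The wider list gave 1 with no filter and 1 with DESeq2. Over all genes 43 of 16683 passed in the interaction, against 195 of 35577 with no filter and 258 with DESeq2. When leaving out single libraries 2 to 616 of all genes passed. Without teriflunomide replicate 3 and combination replicate 2 together (added after the data were seen), the counts were 10 of the wider list with teriflunomide, 5 of the 10 genes and 16 of the wider list for the combination against lurbinectedin, and 1 of the 9 genes tested and 6 of the wider list in the interaction. Over all 16945 genes in that fit, 2757 passed with teriflunomide, 3640 for the combination against lurbinectedin and 1839 in the interaction. The POLG2 to POLG ratio of combination against lurbinectedin, a log2 difference of 0.10, ranged from -0.05 to 0.25 when leaving out single libraries, and was -0.051 without combination replicate 2 and -0.0085 without lurbinectedin replicate 3. The cause of these moves was not tested.

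The correlation of deviations between same-numbered libraries lay between -0.40 and 0.14. With the replicate number as a block, the calls of POLG2 with lurbinectedin (adjusted p = 0.0569, edgeR) and of TFB2M in the combination against control (adjusted p = 0.0513, edgeR) were lost, and 1 of the wider list passed with teriflunomide in place of 3. Of the 9 genes tested, 5 then passed with lurbinectedin, 5 in the combination against control and 8 against teriflunomide. Of all 16683 genes 11591, 11044 and 11470 passed in these comparisons with the block, and 415 with teriflunomide. At this depth TFB1M and POLG2, the least covered of the 10 genes, rest on medians of 295.5 and 432.5 counts per library.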
